A study of Homo sapiens with 8 samples.

Results

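Replication-dependent histone genes were followed in H1975 and HCC44, 2 lines of human lung cancer cells, after culture with the compound ACBI1 or with its solvent DMSO. The members are the gene names that begin with H2AC, H2BC, H3C or H4C and a digit, or that run from H1-1 to H1-6, with pseudogenes left out. They number 70 of 61228 listed gene names: 6 linker histone H1 genes, 17 H2A, 19 H2B, 13 H3 and 15 H4 genes. Of these, 54 passed the filter on low counts and were tested. The other 16 were not tested: 3 had no count in any of the 8 libraries, and the remaining 13 had at most 14 counts in a library.

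Each of the 4 groups (H1975 DMSO, H1975 ACBI1, HCC44 DMSO, HCC44 ACBI1) held 2 libraries. Both lines are established lines and carry the genotype label WT, so each group represents a single line and no donor replication. ACBI1 is a degrader that tethers the VHL ubiquitin ligase to the SWI/SNF chromatin remodelling subunits SMARCA4, SMARCA2 and PBRM1 through their bromodomains. Per the labels it was given for 96 hours at 1 mM, a concentration printed here in the unit of the labels, and nothing in them says that the replicates are separate cultures. The p-values therefore measure the spread between these libraries, which may be technical.

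Nucleosomes wrap DNA around a core of H2A, H2B, H3 and H4, and H1 binds the linker DNA between them. The replication-dependent genes supply these proteins while DNA is copied, and their transcription, led by the coactivator NPAT in histone locus bodies, is tied to S phase. Their mRNAs have no introns in the usual form and end at a stem-loop bound by the protein SLBP in place of a poly(A) tail, although some members also give longer, polyadenylated transcripts that are not limited to S phase.

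Cleavage just after the stem-loop ends the S-phase form of these mRNAs, and the polyadenylated form runs past it, so it is shown first for 5 members that fell in H1975. The sequences are from GENCODE release 29 transcripts, 5′ to 3′ with T for U, with the 16 bases of the stem-loop in capitals and 5 bases on either side.
H2AC6: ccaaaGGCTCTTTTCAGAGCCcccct
H2BC21: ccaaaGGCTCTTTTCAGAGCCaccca
H2BC4: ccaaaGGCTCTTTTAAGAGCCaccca
H3C10: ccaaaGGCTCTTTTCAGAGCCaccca
H4C8: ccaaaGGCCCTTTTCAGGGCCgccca
The histone stem-loop, searched on the transcript strand, was found in 25 of the 66 members with a transcript in that release (37.9%), and in 36 of all 58721 genes (0.0613%). The absence of a match says only that the annotated transcript does not hold these letters. In 19 of the 25 the annotated transcript ran on for more than 100 bases past the stem-loop. The median over all 25 was 1022 bases, with 1128 in H2AC6, 1729 in H2BC21, 116 in H2BC4, 769 in H3C10 and 1655 in H4C8.

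Members share short promoter elements, shown here for 3 members that fell in H1975 and for H2BC11, which rose in HCC44. Each line is the 250 bases before the gene's start from RefSeq (GRCh38.p14), 5′ to 3′ on the gene's strand. Capitals mark the CCAAT box, the box spelled TATAAA and the octamer ATTTGCAT, on either strand, and neighbouring matches can run into each other.
H2AC6, chr6:26123922-26124171, plus strand: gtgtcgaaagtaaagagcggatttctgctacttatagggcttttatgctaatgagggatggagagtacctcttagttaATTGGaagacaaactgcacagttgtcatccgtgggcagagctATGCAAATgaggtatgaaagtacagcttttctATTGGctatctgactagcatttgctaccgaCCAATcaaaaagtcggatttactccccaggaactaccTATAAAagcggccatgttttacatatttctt
H2BC21, chr1:149886683-149886932, minus strand: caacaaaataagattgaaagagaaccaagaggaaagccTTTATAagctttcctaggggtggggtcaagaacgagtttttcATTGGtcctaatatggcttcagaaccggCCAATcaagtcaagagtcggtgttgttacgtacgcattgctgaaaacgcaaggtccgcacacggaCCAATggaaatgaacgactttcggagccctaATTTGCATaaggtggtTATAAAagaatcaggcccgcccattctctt
H3C10, chr6:27809801-27810050, plus strand: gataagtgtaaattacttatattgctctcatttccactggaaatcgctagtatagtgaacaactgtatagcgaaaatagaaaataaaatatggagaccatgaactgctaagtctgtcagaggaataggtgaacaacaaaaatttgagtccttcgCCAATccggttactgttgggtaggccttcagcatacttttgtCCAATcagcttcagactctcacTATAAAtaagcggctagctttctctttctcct
H2BC11, chr6:27132796-27133045, minus strand: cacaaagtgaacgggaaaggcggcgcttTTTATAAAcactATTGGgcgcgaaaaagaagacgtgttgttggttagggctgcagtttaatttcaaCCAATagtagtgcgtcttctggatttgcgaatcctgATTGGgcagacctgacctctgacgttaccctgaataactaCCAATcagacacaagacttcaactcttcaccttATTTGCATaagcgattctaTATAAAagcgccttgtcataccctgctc
RefSeq promoters matched 64 of the 70 members. CCAAT stood in 54 of the 64 (84.4%) against 33% of 27305 promoters of the same length, TATAAA in 42 (65.6%) against 11.1%, and the octamer in 26 (40.6%) against 1.66%. The classes differed: CCAAT was in all promoters matched of H1, H2A, H2B and H3 genes but in 3 of 13 H4 promoters, and the octamer was in 14 of 18 H2B and 11 of 16 H2A promoters and in no H1 or H4 promoter. The octamer was in 6 of the 13 promoters of members that fell in H1975 and in 15 of the 37 matched promoters of tested members that did not. The promoters are not all separate sequences. In 12 pairs an H2A and an H2B gene on opposite strands have starts 193 to 247 bases apart. Their windows overlap, so a single element can count for both genes. H2AC7 and H3C4 have the same window, and H4C14 and H4C15 the same letters. These are descriptions of the letters and carry no test.

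Gene counts totalled 62467286 to 70455517 per library, of which the members held 0.0197 to 0.0508%. Whether poly(A) RNA was selected or ribosomal RNA depleted is not given in the sources used here. Of 9 RNAs that lack a poly(A) tail, 4 were at 0 in every library, RN7SK among them, and the sum of all 9 was 12 to 50.6 CPM (the usual unit of counts divided by library size, here scaled by TMM factors). The sum did not follow the treatment: 20.3 and 43.4 CPM in H1975 DMSO against 12 and 50.6 CPM in H1975 ACBI1. RN7SL1 alone gave 16.9 and 39.4 CPM and 9.32 and 47 CPM of these, so the sum mostly reads a single RNA. In H1975 it was lower in replicate 1 than in replicate 2 of both groups. Of the lung adenocarcinoma markers, NKX2-1 was at 19.2 to 27.5 CPM in H1975 and at most 0.0318 CPM in HCC44, and SFTPB was at most 0.266 CPM in either line. The 5 epithelial markers summed to 1035 to 2270 CPM in H1975 and 449 to 536 CPM in HCC44, while the 3 leukocyte markers summed to at most 0.254 CPM, with CD3E at 0 throughout. The endothelial markers PECAM1 and VWF summed to 0.14 to 0.325 CPM in H1975 and 0.912 to 2.15 CPM in HCC44.

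In H1975, histone gene transcripts were fewer after ACBI1 in all 5 classes. The 70 members summed to 342 and 315 CPM in the DMSO libraries and to 179 and 174 CPM in the ACBI1 libraries, a ratio of 0.537. As a share of unscaled gene counts they went from 0.0339 and 0.0312% to 0.0205 and 0.0197%. The ACBI1 libraries lay below both DMSO libraries in each class. H2A genes summed to 69.4 and 67.8 CPM with DMSO and 30 and 28.3 CPM with ACBI1, a log2 ratio of -1.23. For H4 the sums were 20.9 and 15.4 against 10.7 and 7.75 CPM (-0.98), and for H2B 187 and 174 against 100 and 97.6 CPM (-0.87). H3 genes summed to 15.7 and 13.8 against 9.07 and 7.41 CPM (-0.84), and H1 genes to 49.3 and 44.2 against 29.6 and 32.6 CPM (-0.59). In bulk RNA, fewer cells that make a transcript and less of it per cell cannot be told apart.

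**Figure D1:**
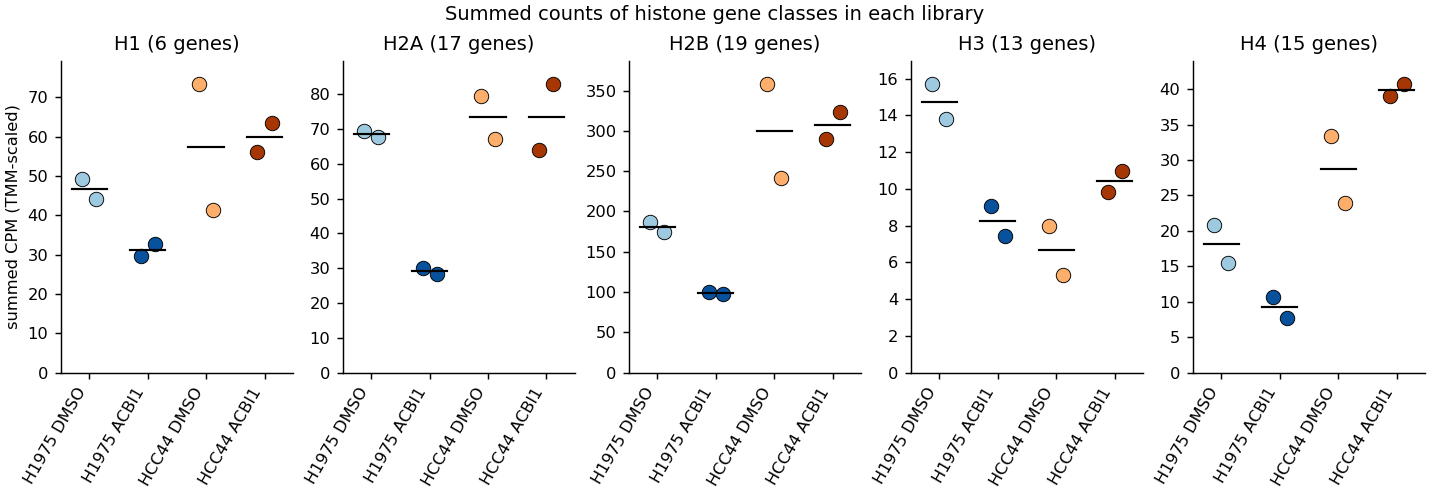
Summed TMM-scaled CPM (vertical axes from 0) of the 70 members by histone class, 1 point per library and a bar at the mean of 2. In H1975 both ACBI1 points lie below both DMSO points in every class (H2A from 69.4 and 67.8 to 30 and 28.3 CPM), while in HCC44 the first DMSO library stands above the second in every class.

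With edgeR's quasi-likelihood F-test, adjusted by Benjamini-Hochberg over all 21307 tested genes, 13 of the 54 tested members were called in H1975 (adjusted p under 0.05), all of them lower and none higher. Over all tested genes 31.3% were called, 16.7% lower and 14.6% higher. The members' share of calls, 24.1%, is below that of all genes and is no result about them, while all 13 calls were in 1 direction. The fold change was below 0 in 50 of the 54 members and above 0 in 4, with a median of -0.69 on the log2 scale against -0.01 over all tested genes. Calls followed the counts: 12 of the 24 tested members with a mean of at least 1 CPM were called, and 1 of the 30 under that level.

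Among H2A genes, whose product pairs with H2B in the nucleosome core, 3 of 13 tested fell. H2AC6 (chr6:26124172-26124690, plus strand), the stem-loop gene shown above with a long annotated tail, had 51.9 and 50.7 CPM in the DMSO libraries and 17.3 CPM in both ACBI1 libraries. Its log2 fold change was -1.57 ± 0.13 (± SE here and below, adjusted p 2.19e-05). H2AC13 (chr6:27808173-27808667, plus strand) had 2.21 and 2.16 CPM with DMSO and 0.466 and 0.396 CPM with ACBI1, a log2 fold change of -2.33 ± 0.31 (adjusted p 0.000368). For both genes the 2 ACBI1 libraries sat close together and well below the DMSO pair. Only 37.7% of the 50-base stretches in the annotated H2AC13 transcript are found in no other annotated histone gene, so its counts are uncertain where reads fit several copies. H2AC15, under 1 CPM in H1975 and in a divergent pair with H2BC15, went from 0.528 and 0.592 to 0.306 and 0.141 CPM (-1.31, adjusted p 0.0222). H2AC25, H2AC20, H2AC8 and H2AC11 were not called, with log2 values of -0.52, -0.69, -0.27 and -0.16.

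Of the H2B genes 6 of 16 tested fell, the highest count of any class. H2BC21 (chr1:149884459-149886682, minus strand), in the chromosome 1 group, had 41.5 and 42.1 CPM with DMSO and 17.5 and 17 CPM with ACBI1. The fall was -1.27 ± 0.22 in log2 units (adjusted p 0.00304). H2BC12 had 72.8 and 67.6 CPM against 38.9 and 39.5 CPM, a log2 fold change of -0.84 ± 0.13 (adjusted p 0.000813), and H2BC5 had 30.9 and 28.4 CPM against 13.4 and 15.2 CPM, a log2 fold change of -1.05 ± 0.16 (adjusted p 0.000695). These 3 genes kept a narrow spread within each pair of libraries, and the pairs lie far apart. Counts of H2BC12 carry 2 limits: the gene overlaps H4C9, and 25.9% of its transcript's 50-base stretches are found in no other histone gene. H2BC5 overlaps the antisense gene H2BC6-AS1, and the strand setting of the counting is not given in the sources used here. H2BC6 went from 2.69 and 2.4 to 1.16 and 0.933 CPM (-1.28 ± 0.37, adjusted p 0.023), and H2BC4, which shares a promoter region with H2AC6, from 9.44 and 10 to 4.7 and 5.42 CPM (-0.94 ± 0.29, adjusted p 0.0363). H2BC8, beyond the 8 largest falls and named after its value was seen, went from 7.87 and 5.22 to 4.04 and 2.64 CPM (-0.97, adjusted p 0.0197). The 3 H2B genes with values above 0, H2BC11, H2BC13 and H2BC15, were not called, with log2 values of 0.33, 0.22 and 0.09.

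Of the genes for H3 and H4, which form the central tetramer of the nucleosome, 2 of 9 H3 and 2 of 11 H4 genes tested fell. H3C10 (chr6:27810051-27810536, plus strand) had 6.68 and 6.12 CPM with DMSO and 2.59 CPM in both ACBI1 libraries, a log2 fold change of -1.30 ± 0.20 (adjusted p 0.000777). H4C8 (chr6:26285126-26285534, minus strand) had 12.4 and 8.89 CPM against 5.24 and 3.97 CPM, a log2 fold change of -1.21 ± 0.23 (adjusted p 0.00354). In both genes the 2 groups do not overlap, and H4C8 had the wider spread between DMSO libraries. H3C6, also beyond the 8 largest falls and named after its value was seen, went from 4.32 and 3.64 to 2.45 and 1.92 CPM (-0.86, adjusted p 0.0174), and H4C14 from 2 and 1.51 to 0.825 and 0.834 CPM (-1.08, adjusted p 0.025). In H4C14 only 2.46% of the 50-base stretches are found in no other histone gene, so its value cannot be assigned to that copy alone.

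None of the 5 tested H1 genes was called in H1975, although all 5 values were below 0. H1-2, the linker histone gene with most of the H1 counts, had 46.6 and 42 CPM with DMSO and 27.9 and 31.4 CPM with ACBI1, and its log2 value of -0.58 ± 0.21 had an adjusted p of 0.0655. The 2 groups of H1-2 do not overlap. H1-2 was called under 5 of 17 alternatives, among them DESeq2 and the fit to H1975 alone, and under none that left out an H1975 library. H1-4 had 1.57 and 1.21 against 0.825 and 0.495 CPM (-1.07, adjusted p 0.141). H1-3, H1-6 and H1-5 had log2 values of -0.65, -0.49 and -0.25, with adjusted p-values of 0.201, 0.713 and 0.776.

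The calls of H2AC6, H2AC13, H2BC5, H2BC12, H2BC21, H3C10 and H4C8 stood under each of 17 alternative settings, and the other 6 of the 13 were lost under at least 1. The count of 13 dropped to 7 without H1975 DMSO replicate 1 and also to 7 without H1975 ACBI1 replicate 2, with none higher in either case.

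**Figure D2:**
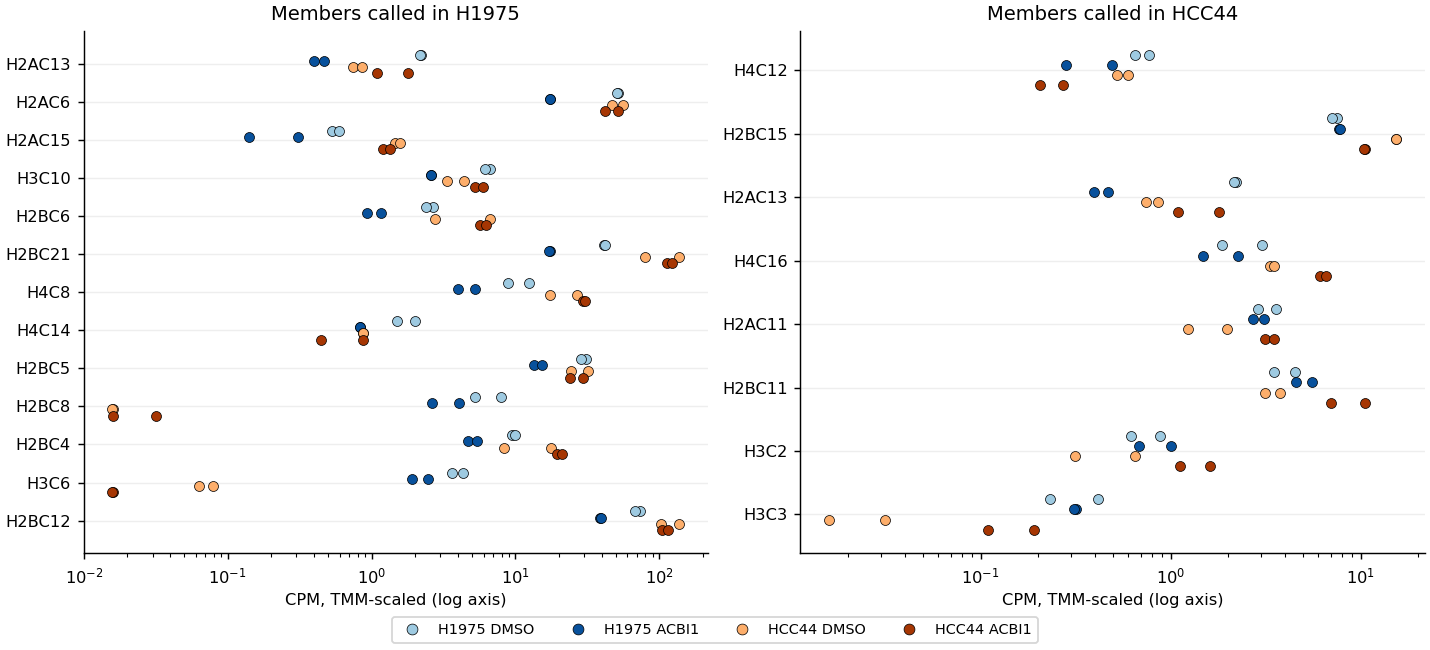
TMM-scaled CPM on a log axis for the members called in H1975 (left) and in HCC44 (right), ordered by log2 fold change, 1 point per library and libraries at 0 left out. On the left the dark blue ACBI1 points lie below the light blue DMSO points for all 13 members, for example 17.3 CPM against 51.9 and 50.7 CPM for H2AC6. On the right H2BC11 rose from 3.77 and 3.13 to 6.96 and 10.6 CPM in HCC44.

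In HCC44 the summed level of histone transcripts was not shifted beyond the spread between libraries. The 70 members summed to 552 and 380 CPM in the DMSO libraries and to 459 and 522 CPM in the ACBI1 libraries, a ratio of 1.05. The first DMSO library was above the second in all 5 classes, for instance 358 against 242 CPM for H2B and 73.3 against 41.3 CPM for H1, and in H1 and H2B both ACBI1 values lay between the 2. In H2A the DMSO libraries were at 79.6 and 67.1 CPM and the ACBI1 libraries at 64.1 and 82.9 CPM, so the groups overlap. The same 2 DMSO libraries differed less in the summed level of 12 S-phase genes, 1017 against 1147 CPM, and in the other direction. Single genes of that list differed more, such as RRM2 (13.7 against 26.1 CPM) and MKI67 (19 against 32.1 CPM), while MCM3 (104 and 101 CPM) did not. Among the histone classes H3 and H4 were the exception, with both ACBI1 libraries above both DMSO libraries. The sums were 9.83 and 11 against 8 and 5.3 CPM for H3 and 39 and 40.7 against 33.4 and 24 CPM for H4. The log2 ratios were 0.65 for H3 and 0.47 for H4, against 0.06 for H1, 0.00 for H2A and 0.03 for H2B.

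Of the 54 tested members 8 were called in HCC44, 6 higher and 2 lower. The 6 include H3C3, which had 22 counts over the 4 HCC44 libraries, too few to read its response. Over all tested genes 34.9% were called, 17.5% higher and 17.4% lower, against 14.8% of the members. The log2 value was above 0 in 37 members and below 0 in 15, and the remaining 2 had no counts in this line. The median was 0.37, or 0.44 over the 49 members with more than 10 counts in the 4 HCC44 libraries, against 0.01 for all tested genes. The count depends on single libraries: it was 3 without HCC44 DMSO replicate 2, where the median was 0.03, and 4 without HCC44 ACBI1 replicate 2.

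The divergent pair H2AC11 and H2BC11, whose starts face each other across 247 bases, rose together in HCC44. H2BC11 (chr6:27132316-27132795, minus strand), whose promoter is printed above, had 3.77 and 3.13 CPM with DMSO and 6.96 and 10.6 CPM with ACBI1. It rose by 1.35 ± 0.24 on the log2 scale (adjusted p 0.00154), and H2AC11 went from 1.99 and 1.24 to 3.15 and 3.51 CPM (1.05 ± 0.26, adjusted p 0.00988). The groups of both genes do not overlap, but the call of H2AC11 was lost without HCC44 DMSO replicate 2 (adjusted p 0.0914). H4C16 (chr12:14770720-14771131, minus strand), the member that lies alone on chromosome 12, rose from 3.35 and 3.5 to 6.13 and 6.58 CPM, a log2 fold change of 0.89 ± 0.27 (adjusted p 0.023). H3C2 rose from 0.652 and 0.313 to 1.12 and 1.62 CPM (1.5, adjusted p 0.0131), and H2AC13 from 0.747 and 0.862 to 1.09 and 1.79 CPM (0.84, adjusted p 0.0495). The H2AC13 call is marginal and was lost under 10 of 17 alternatives, among them DESeq2. H3C3, named here although it lies under 1 CPM, had 3 counts over the DMSO libraries and 19 over the ACBI1 libraries (2.58, adjusted p 0.0223).

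H2BC15 was 1 of the 2 members that fell in HCC44. It had 15.4 and 15.3 CPM with DMSO and 10.5 and 10.4 CPM with ACBI1 in HCC44, a log2 fold change of -0.55 ± 0.13 (adjusted p 0.00859). With H2BC11 it was called under each of the 17 alternatives. The other lower gene was H4C12 (0.525 and 0.596 against 0.272 and 0.205 CPM, -1.23, adjusted p 0.0324), which is under 1 CPM and was named after its value was seen, and which has no 50-base stretch of its own among histone genes. The linker genes H1-2, H1-3, H1-4, H1-5 and H1-6 were not called in HCC44, with log2 values of 0.11, 0.27, -0.58, 0.92 and -0.58. H1-4 shows the DMSO spread: 8.95 and 3.06 CPM in the DMSO libraries and 3.9 and 4.11 CPM with ACBI1.

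The lines differed in the response itself. The test of HCC44 minus H1975 called 13 of the 54 members, 12 positive and 1 negative, where 18.6% of all tested genes were called, 10.2% positive and 8.4% negative. The difference was above 0 in 48 members and below 0 in 6, and its median was 1.03 on the log2 scale against 0.04 over all tested genes. These figures include members with few HCC44 counts, among them H2BC9 and H3C7 with 0. Over the 49 members with more than 10 counts in each line the median was 1.13. For H2AC13 it was 3.17 ± 0.43 (adjusted p 0.000989), from a fall in H1975 and a marginal rise in HCC44. For H3C10 it was 1.84 ± 0.28 (adjusted p 0.00161), with 4.36 and 3.35 CPM in HCC44 DMSO and 5.23 and 5.95 CPM in HCC44 ACBI1. For H4C8 it was 1.65 ± 0.32 (adjusted p 0.00697), with 26.7 and 17.5 against 29.6 and 30.3 CPM in HCC44. These 3 were therefore lower after ACBI1 in H1975 and not lower in HCC44.

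For H2AC6 the difference was 1.44 ± 0.18 (adjusted p 0.00054). In HCC44 this gene had 55.6 and 47.1 CPM with DMSO and 42.1 and 52 CPM with ACBI1, overlapping groups with a log2 value of -0.13. H2BC5 (0.99 ± 0.22, adjusted p 0.0108) was alike, with 31.8 and 24.2 against 24.1 and 29.6 CPM in HCC44. H2AC6, H2AC13, H2BC5, H3C10 and H4C8 were called for a difference under each of 16 alternatives, and the other 8 calls were each lost under some. Those were H2BC6 (1.62, adjusted p 0.0453), H2BC4 (1.59, adjusted p 0.0258), H2BC21 (1.40, adjusted p 0.0149), H4C16 (1.28, adjusted p 0.0406), H2AC11 (1.21, adjusted p 0.0409), H2BC12 (0.69, adjusted p 0.0222), H4C9 (1.73, adjusted p 0.0467) and, in the other direction, H2BC15 (-0.64, adjusted p 0.0406). H4C9, which is under 1 CPM and was called under 2 of its 15 alternatives, is named after its value was seen. The count of 13 went to 5 without H1975 ACBI1 replicate 2 or without HCC44 ACBI1 replicate 2, to 6 without H1975 DMSO replicate 1 or H1975 ACBI1 replicate 1, and to 7 without replicate 2 of either DMSO group.

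**Figure D3:**
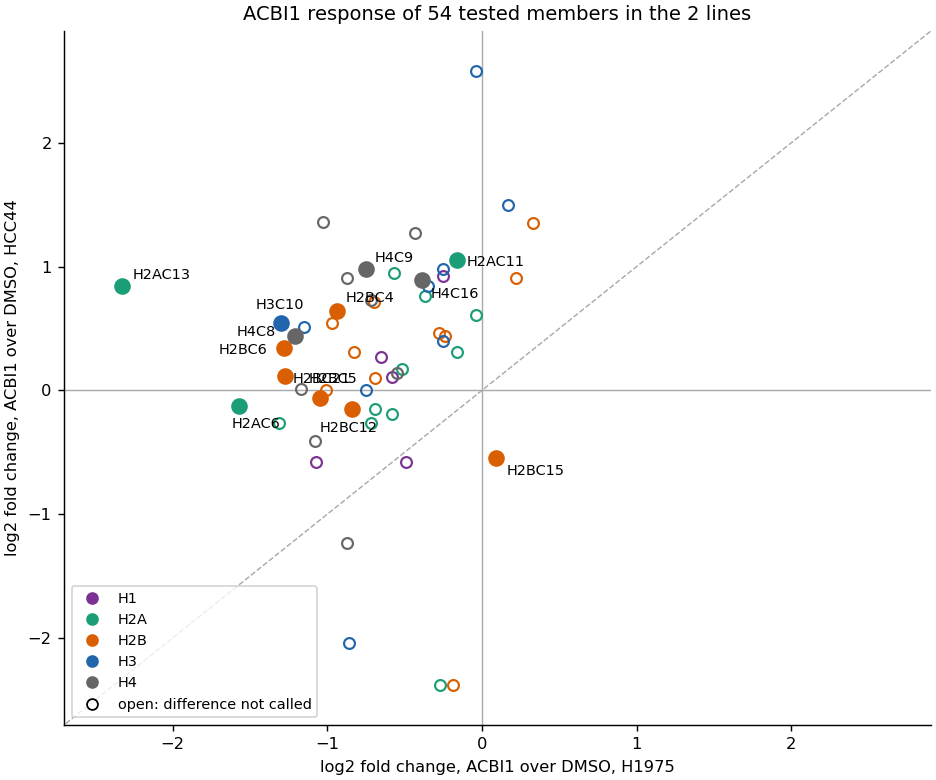
Log2 fold change of ACBI1 over DMSO in H1975 (horizontal) and HCC44 (vertical) for the 54 tested members, coloured by class, with filled points where the difference between lines was called and a dashed line of equal response. All filled points but H2BC15 lie above the dashed line, and H2AC13 lies farthest from it, at a difference of 3.17. The lowest 2 points, H2AC8 and H2BC10, rest on 1 count each in HCC44.

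Counts of members were concentrated in a few genes. H2BC12, H2BC21, H1-2, H2AC6 and H2BC5 took 73% of all member counts, a share of reads that is not corrected for transcript length. The 10 members known to make polyadenylated transcripts as well, among them these 5 with H2BC4, H2BC6, H2BC8, H2BC11 and H4C8, took 84%. In H1975 8 of these 10 fell and none rose, where 16.7% of all tested genes were called lower. Their median was -1.01, and their sum went from 281 and 261 to 136 and 138 CPM. H1-2 and H2BC11 were the 2 not called. Of the 44 other tested members 5 fell, with a median of -0.57, and the 60 other members in all summed to 61.4 and 54.4 CPM against 43.5 and 35.7 CPM. Among other members with a mean of at least 1 CPM, 4 of 14 fell. In HCC44 1 of the 10 rose (H2BC11) and none fell, where 17.5% of all tested genes were called higher. The sums there were 481 and 323 CPM against 396 and 444 CPM. Each of the 10 has a mean of at least 1 CPM, where calls in H1975 were more frequent (12 of 24 members, against 1 of 30 under it). No test set these groups of members against each other.

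Falls in H1975 were called in the 3 larger chromosomal groups in which these genes lie, where 16.7% of all tested genes were called lower. The remaining groups had at most 2 tested members each, too few to set beside them. The lower chromosome 6 group (25726063 to 26285534) holds 34 members, of which 7 of 26 tested fell with a median of -0.69. The upper group (27132316 to 27893891) holds 21, of which 4 of 19 fell with a median of -0.57, and the larger chromosome 1 group holds 11, of which 2 of 6 fell with a median of -0.89. In HCC44 the called members were 2 higher in the lower group, 3 higher and 2 lower in the upper group and H4C16 on chromosome 12. Over all tested genes 17.5% were called higher there and 17.4% lower. Neighbours can share a promoter region: of 12 divergent H2A-H2B pairs with starts 193 to 247 bases apart, 10 had both genes tested. H2AC6 and H2BC4 was the pair with both genes fallen in H1975. H2AC13 was at -2.33 in H1975 where its partner H2BC13 was at 0.22, and H2AC15 at -1.31 where H2BC15 was at 0.09.

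The 2 lines already differed with DMSO alone. Of the 54 members 27 (50%) were called between the DMSO groups, 11 higher and 16 lower in HCC44. Over all tested genes 67.9% were called (31.6% higher and 36.4% lower), so the members' share is below that of all genes and is no result about them. Higher members included H2AC25 (16.7 and 13.7 CPM in HCC44 against 4.68 and 4.13 CPM in H1975), H2BC21 (137 and 79.4 against 41.5 and 42.1 CPM) and H1-4 (8.95 and 3.06 against 1.57 and 1.21 CPM). H2AC6, at 55.6 and 47.1 CPM in HCC44 against 51.9 and 50.7 CPM in H1975, was not called, with a log2 value of 0.00.

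Several members with low counts in HCC44 lie next to each other. Between H2BC8 and H2BC10 (chr6:26216200-26273412), 10 consecutive members had 4245 counts over the 4 H1975 libraries and 211 over the 4 HCC44 libraries. H1-3, inside this stretch, gave most of the HCC44 counts, with 75 with DMSO and 90 with ACBI1, and was near its H1975 counts of 92 and 65. Without H1-3, H2BC8 had 860 counts in H1975 DMSO and 2 in HCC44 DMSO, a ratio per scaled library size of 413 (exact 95% interval 114 to 3414, counting error only). For H2AC8 it was 515 counts against 1 (ratio 494, interval 88.3 to 19564), for H3C6 524 against 9 (55.9, interval 29.2 to 123), for H3C8 150 against 10 (14.4, interval 7.62 to 30.6) and for H2BC10 78 against 1 (74.9, interval 13 to 2995). H2BC9 had 267 counts and H3C7 20 in H1975 DMSO and both had 0 in HCC44. Against a floor of 3 counts over the group they were at least 85.4-fold and at least 6.4-fold lower in HCC44. On 1 side of this stretch H4C8 had 1402 counts in H1975 DMSO and 2795 in HCC44 DMSO. On the other side H4C5 had 91 and 15 counts and H2BC7 179 and 97. Low counts were not confined to it: H3C3, at chr6:26045384-26045869, had 43 counts in H1975 DMSO and 3 in HCC44 DMSO (ratio 13.8, interval 4.4 to 69.3), and H4C11, in the upper chromosome 6 group, had 35 and 6 (ratio 5.6, interval 2.33 to 16.3). The stretch was singled out after its values were seen, and it was not tested as a region. Responses to ACBI1 cannot be read in HCC44 for these low genes. The HCC44 call of H3C3 as higher falls under this limit, since it rests on 3 counts with DMSO and 19 with ACBI1.

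**Figure D4:**
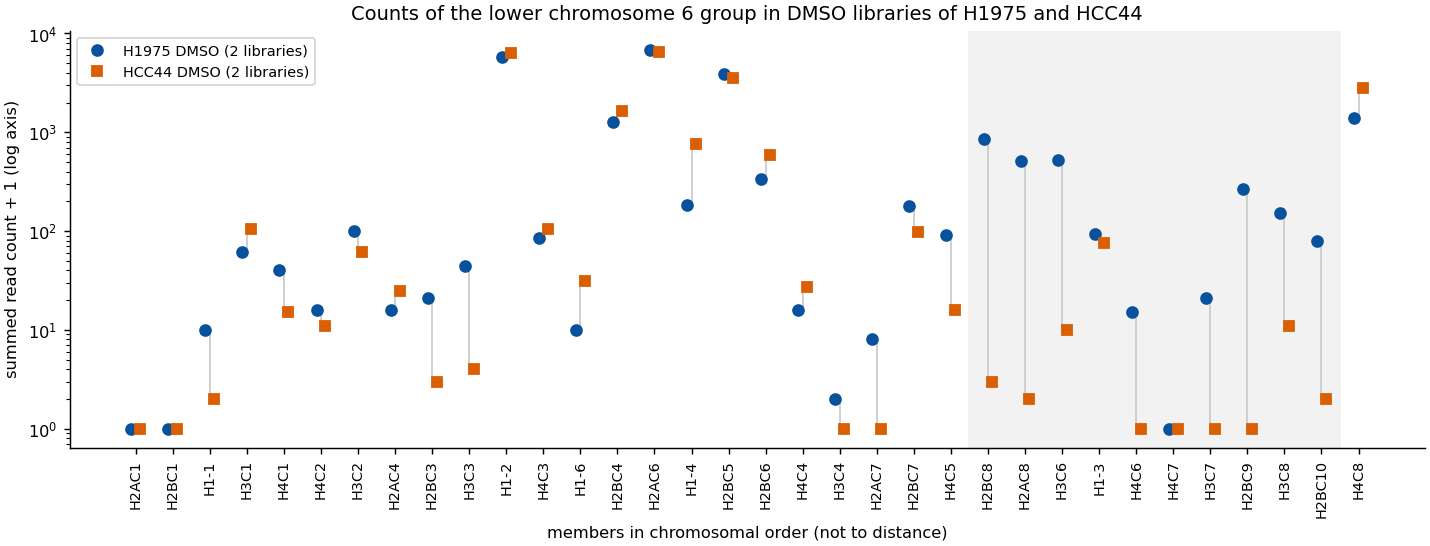
Read counts summed over the 2 DMSO libraries of each line, plus 1, on a log axis, for the 34 members of the lower chromosome 6 group in chromosomal order. In the shaded stretch from H2BC8 to H2BC10 the HCC44 squares sit at 10 counts or fewer except at H1-3 (75), while H2BC8 reaches 860 in H1975. Outside the shading H2AC6 has 6773 counts in H1975 and 6502 in HCC44, and H4C8 has 1402 and 2795.

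Genes that make, process and deposit histones were called in both directions. Of the 22 genes of histone mRNA transcription and 3′ processing, all tested, 6 rose and 2 fell in H1975, and 4 rose and 3 fell in HCC44. The called share was 36.4% in H1975 and 31.8% in HCC44, near the 31.3% and 34.9% over all tested genes. SLBP, which binds the stem-loop, was at 62.9 and 67.6 CPM with DMSO and 60.6 and 67.7 CPM with ACBI1 in H1975 (log2 -0.02, adjusted p 0.882). In HCC44 it rose from 37.7 and 41.7 to 49.7 and 48.7 CPM (0.31, adjusted p 0.0331). NPAT, the coactivator of the whole family, fell in H1975 from 28 and 29.5 to 21.1 and 23 CPM (-0.38, adjusted p 0.0316) and in HCC44 had a log2 value of -0.29 that was not called (adjusted p 0.0849). The difference between the lines in NPAT was 0.10 (adjusted p 0.753). CASP8AP2, a scaffold of the histone locus body, was not called in either line (-0.11 and 0.18).

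Larger changes in this list were in genes with other roles as well. E2F1, a transcription factor of the G1/S transition, rose in both lines, from 59.8 and 55.5 to 100 and 94.5 CPM in H1975 (0.76, adjusted p 0.00127) and from 29.8 and 39.9 to 94.6 and 97.5 CPM in HCC44 (1.46, adjusted p 1.81e-05). MIF4GD, a partner of SLBP in histone mRNA translation, rose in H1975 from 17.7 and 23.3 to 38.7 and 49.7 CPM (1.11, adjusted p 0.000601). CCNE2, a cyclin that activates CDK2 at S phase entry, rose in HCC44 (0.83, adjusted p 0.00439), as did CDK2 itself (0.62, adjusted p 0.000837). UPF1, a helicase needed for histone mRNA decay, fell in HCC44 from 196 and 194 to 120 and 133 CPM (-0.62, adjusted p 0.000277), and LSM11, a subunit of the 3′ end processing particle, also fell there (-0.58, adjusted p 0.0305).

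Of the 20 histone chaperones, 1 rose and 3 fell in H1975, while 6 rose and 2 fell in HCC44. ASF1B, which hands H3 and H4 to the assembly factors, rose in HCC44 from 13.2 and 21.1 to 51.6 and 57.3 CPM (1.67, adjusted p 0.000107) and was not called in H1975 (0.18, adjusted p 0.49). CHAF1A, a subunit of the replication-coupled assembly factor CAF-1, rose there from 42.8 and 52.3 to 109 and 114 CPM (1.23, adjusted p 2.48e-05). The differences between the lines were 1.49 for ASF1B (adjusted p 0.00379) and 1.12 for CHAF1A (adjusted p 0.00117). CHAF1B rose in both lines (0.60 and 1.07, adjusted p 0.00176 and 3.59e-05). NASP, which holds the reserve of soluble H3 and H4, fell in H1975 (-0.41, adjusted p 0.0119) and rose in HCC44 (0.33, adjusted p 0.0265), with a difference of 0.75 (adjusted p 0.00612). HJURP, the chaperone of CENPA (1.84, adjusted p 0.00472), and TONSL, which binds newly deposited H4 behind the fork (1.23, adjusted p 0.000569), also rose in HCC44. Over processing genes and chaperones together, 12 of 42 were called in H1975 (28.6%, against 31.3% of all tested genes), 15 in HCC44 (35.7%, against 34.9%) and 12 for the difference (28.6%, against 18.6%). The shares within each line were near those of all genes. The count in H1975 went to 5 without H1975 ACBI1 replicate 2 and to 7 without any 1 of the other 3 H1975 libraries.

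Replacement histones, made also outside S phase, included genes that fell in both lines and genes that rose in HCC44. H3-3B fell in both lines, from 458 and 454 to 276 and 262 CPM in H1975 (-0.76, adjusted p 0.000117) and from 485 and 479 to 272 and 248 CPM in HCC44 (-0.89, adjusted p 2.76e-05). H3-3A, which encodes the same protein, fell by 0.48 and 0.42 on the log2 scale (adjusted p 0.00185 and 0.00289). MACROH2A1 fell in both as well (-0.51 and -0.31, adjusted p 0.00503 and 0.0478). In HCC44 H2AZ1 (0.30, adjusted p 0.0261), H2AZ2 (0.61, adjusted p 0.000307) and the centromeric variant CENPA (1.83, adjusted p 0.0115) rose. H2AX, whose gene can make both kinds of mRNA, was not called in either line (-0.20 and 0.13). In all, 3 of 10 tested variants fell and none rose in H1975, and 3 fell and 3 rose in HCC44. The called share was 30% in H1975, near the 31.3% over all tested genes, and 60% in HCC44 against 34.9%.

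The summed level of S-phase genes and that of the histone members are given side by side here, since histone supply is tied to DNA replication. In H1975 the 12 genes summed to 1635 and 1568 CPM with DMSO and 1749 and 1519 CPM with ACBI1, and 2 of 12 rose (MCM2 and TYMS) with none fallen, while the histone sum went down by 0.90 on the log2 scale. In HCC44 the S-phase sum went from 1017 and 1147 to 1970 and 2150 CPM and 11 of 12 rose, while the histone sum changed by 0.07. MKI67 went from 19 and 32.1 to 87.3 and 151 CPM there (2.22, adjusted p 0.00211). Over all tested genes 14.6% were called higher in H1975 and 17.5% in HCC44. The 10 members known to make polyadenylated transcripts hold 84% of member counts, and their part in these sums was not tested. The sum of the 60 other members changed by -0.55 in H1975 and 0.14 in HCC44 on the log2 scale. These too include annotated transcripts that run past the stem-loop, such as H2AC11 (1761 bases) and H4C16 (1510 bases). The epithelial markers moved in the direction of the members in H1975, from 2270 and 2152 to 1204 and 1035 CPM, with 3 of 5 fallen (KRT8, KRT18 and KRT19), and were at 517 and 521 against 449 and 536 CPM in HCC44. The 3 mesenchymal markers fell in H1975 as well: VIM from 1224 and 1415 to 609 and 654 CPM (-1.06, adjusted p 0.00087), COL1A1 from 68.9 and 44.4 to 28.9 and 22.9 CPM (-1.13, adjusted p 0.0485) and COL1A2 from 2.3 and 3.83 to 0.2 and 0.523 CPM (-3.09, adjusted p 0.000804). In HCC44 COL1A1 rose (1.91, adjusted p 0.0055), COL1A2 fell from 7 and 5 counts to 0 in both ACBI1 libraries and VIM was not called (0.43, adjusted p 0.0529). The part of either marker list in the histone result was not tested.

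**Figure D5:**
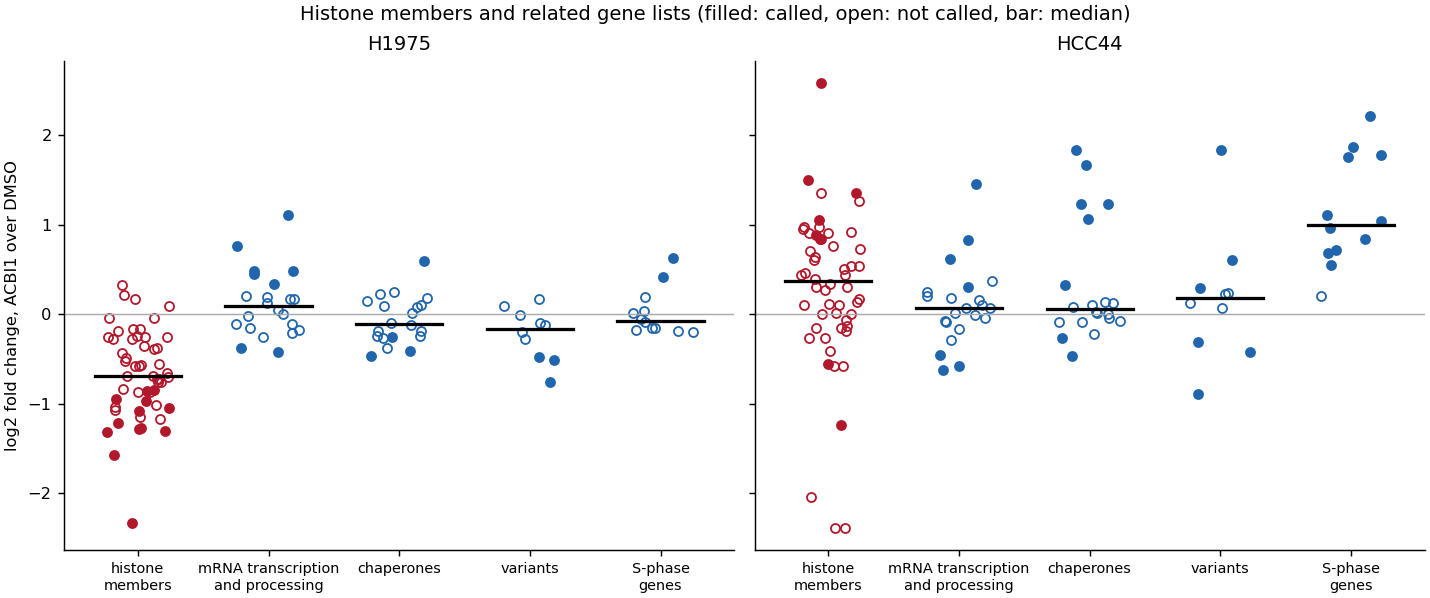
Log2 fold change of ACBI1 over DMSO in H1975 (left) and HCC44 (right), 1 point per tested gene, filled where called, with a bar at each list's median. In H1975 the histone members lie mostly below 0 (median -0.69) and the S-phase genes around it (median -0.07), and in HCC44 the S-phase genes lie at a median of 1.00 and the members at 0.37.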

How the data were processed

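For each of 8 libraries, 2 in each of 4 groups, the authors deposited a table of raw read counts by gene. TopHat2 2.1.1, HTSeq 0.11.0 and the build hg38 are named per the submitters' processing notes, without their roles or settings, and the annotation and strand setting are not given in the sources used here. Beside 61228 gene names a table has 5 summary rows, which held 14.3 to 15.8% of the total and stayed out of library sizes and tests.

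Counts were tested with edgeR 4.0.16 in R 4.3.3. filterByExpr kept 21307 genes, TMM factors scaled the libraries, and all 8 libraries entered 1 model with 4 group means (4 residual degrees of freedom). A quasi-likelihood F-test, with robust estimates of dispersion and two-sided, gave each line's response, their difference (HCC44 minus H1975) and the contrast of the DMSO groups. A gene was called where its p, adjusted by Benjamini-Hochberg over all tested genes, was under 0.05. The procedure was tested on simulated counts. No library is a copy of the other library of its group: chi-square values between replicates, per degree of freedom, were 21.7 to 43.5. Libraries of different groups were not compared in this way.

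The members and gene lists were chosen with earlier results of these data known, and the contrast of the DMSO groups was added after the other tests were chosen. Named were up to 8 called members per direction by size of the log2 value, counting members that reach a mean of 1 CPM in a group of that line (for the difference, of either line), the 5 members with the highest mean CPM, all tested H1 genes, the divergent pairs, and up to 6 called genes per related list with SLBP, NPAT, CASP8AP2 and H2AX. Exceptions are said to be so where they stand. The 22 processing genes, 20 chaperones, 12 variants, 12 S-phase genes, 9 RNAs without a poly(A) tail and the marker lists were fixed as lists, as were the 10 members known to give polyadenylated transcripts. Coordinates are RefSeq's (GRCh38.p14). Near-identical copies were measured as the share of a transcript's stretches of 50 bases found in no other histone gene (GENCODE release 29). The alternatives were DESeq2 1.42.0, 3 other scalings, 2 other filters, each line alone, non-robust dispersion, a block for the replicate number and each library left out. Figures were drawn with matplotlib 3.10.9.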

Additional observations from a re-analysis of the deposited data

Results flagged for a closer look

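H1975 and HCC44 differed in their response to ACBI1 in 13 of the 54 tested histone members (24.1%), against 18.6% of all tested genes. The test was that of the difference itself (edgeR's quasi-likelihood test, Benjamini-Hochberg adjusted p under 0.05). Of the 13 calls, 5 stood under every alternative. In log2 units, HCC44 minus H1975, the difference was 3.17 in H2AC13, 1.84 in H3C10, 1.73 in H4C9, 1.65 in H4C8, 1.62 in H2BC6, 1.59 in H2BC4, 1.44 in H2AC6, 1.40 in H2BC21, 1.28 in H4C16, 1.21 in H2AC11, 0.99 in H2BC5 and 0.69 in H2BC12. In H2BC15 it was -0.64. Among these, the fall in H1975 was called for H2AC13, H3C10, H4C8, H2BC6, H2BC4, H2AC6, H2BC21, H2BC5 and H2BC12, and a change in HCC44 for H2AC13, H2AC11, H4C16 and H2BC15. For H4C9, which is under 1 CPM, neither line's own change was called, and its difference was called under 2 of its 15 alternatives.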

How the results depend on the processing

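No called value of a named member changed sign under the alternatives run. Values that were not called did so 2 times with library totals (H2AC11 in H1975 at 0.04, H2BC5 in HCC44 at 0.03) and 21 times with 1 library left out. In H1975 the values then ran from -0.79 to 0.69 for H1-5, from -0.88 to 0.10 for H1-6, from -0.31 to 0.05 for H2AC11, from -0.11 to 0.45 for H3C2 and from -0.68 to 0.00 for H4C16. In HCC44 they ran from -0.29 to 0.02 for H2AC6, from -0.15 to 1.11 for H2BC6, from -0.22 to 0.57 for H2BC21, from -0.24 to 0.14 for H2BC5, from -0.34 to 0.07 for H2BC12, from -0.21 to 0.53 for H1-2, from -1.16 to 0.38 for H1-4 and from -1.86 to 0.09 for H1-6. For the difference H1-4 ran from -0.09 to 1.46 and H1-6 from -1.36 to 0.59. With library totals in place of TMM factors, which moved the median of all tested genes in H1975 from -0.014 to 0.180, the median of the members in H1975 was -0.49 and the log2 ratios of summed CPM there were -0.39 for H1, -1.03 for H2A, -0.67 for H2B and -0.64 for H3. With upper-quartile factors the ratios in H1975 were -1.16 for H2A and -0.80 for H2B. With no filter 18 members fell in H1975. Leaving out 1 library at a time gave 7 to 15 called members in H1975, 3 to 10 in HCC44 and 5 to 12 for the difference. The medians then ran from -0.81 to -0.53 in H1975, from 0.03 to 0.55 in HCC44 and from 0.84 to 1.39 for the difference, and the processing genes and chaperones called from 5 to 14 in H1975 and from 6 to 13 for the difference. The labels name no shared batch behind the replicate numbers. The correlation of same-numbered libraries' deviations was 0.374 in H1975 and 0.109 in HCC44 over all tested genes, and 0.0327 and -0.047 over the 54 members. With the replicate block, the called members were 16, 12 and 16 and the processing genes and chaperones called for the difference 21. Per named member and comparison, 477 values kept their sign and their side of the threshold under alternatives that keep all libraries, 18 gained a call and 12 lost it. With 1 library left out the counts were 378, 12 and 69. With 2 libraries a group, the 30 tested members under 1 CPM rest on few counts, and a change in them may not be detectable at this depth.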
